A study of Mus musculus with 24 samples.

Results

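The report covers 8 transcription factor genes known to hold back fat cell formation, namely Gata2, Gata3, Aebp1, Sox9, Nr2f1, Nr2f2, Foxc1 and Foxc2. They were chosen by symbol from the 37310 genes of the deposited tables, and each symbol matched 1 gene identifier. Expression had been measured by RNA sequencing in cultures started from the stromal vascular fraction, the non-adipocyte cells that collagenase frees from fat and that include adipocyte precursors, of 6-week-old C57BL/6 mice. The cells came from inguinal white adipose tissue (WAT) or interscapular brown adipose tissue (BAT). After growth in culture they were induced for 4 days with insulin, dexamethasone and 3-isobutyl-methylxanthine and were then kept for 4 more days with insulin and T3. All 8 groups received the induction, and only the day 8 groups went on to the medium with insulin and T3. In comparisons of day 8 with day 4, time and medium therefore cannot be told apart. EGCG groups also received epigallocatechin gallate, a green tea catechin, and control groups its solvent DMSO. RNA was taken on day 4 or on day 8. Depot, day and treatment gave 8 groups of 3 libraries, 24 in all. The labels give neither the dose of EGCG, nor the number of mice, nor whether replicates came from separate isolations, so p-values measure the spread between these libraries, which may be technical.

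Precursor cells become adipocytes when C/EBP beta and C/EBP delta turn on PPAR gamma and C/EBP alpha, which then activate the genes of lipid storage. Restraining factors act on this cascade in different ways. GATA2 and GATA3 repress Pparg and bind C/EBP proteins, AEBP1 was described as a repressor of the fat cell gene Fabp4, SOX9 represses Cebpb and Cebpd, and the orphan nuclear receptor NR2F2 (COUP-TFII), a relative of NR2F1 (COUP-TFI), lowers Pparg and Cebpa. FOXC2 is a forkhead factor that inhibits white adipocyte differentiation and favours brown features in fat, and FOXC1 is its closest relative.

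Values are FPKM, read counts scaled for gene length and for library size, as the authors deposited them. Replicates 1 and 2 are in 1 table and replicate 3 is in another that was scaled separately. Tests therefore used replicates 1 and 2 (limma on log2(FPKM + 1), 1 mean per group, 14095 genes tested), and replicate 3 gave the direction alone. A gene was called at a Benjamini-Hochberg adjusted p under 0.05. Because 1 was added before taking logs, log2 changes of genes at a few FPKM are smaller than those of their FPKM. The shrinkage is strongest below about 1 FPKM. Libraries held 39452696 to 52893848 reads on genes in replicates 1 and 2 and 16392420 to 41675643 in replicate 3. In replicate 3 of WAT day 8 EGCG 5 genes took 61.0% of the reads, against 5.41% and 5.62% in the other two libraries of the group, so its FPKM values are low for all other genes. Where a value of this library stands by itself, it is also given after median-ratio scaling within the replicate 3 table ("rescaled"). The same scaling was applied to the other replicate 3 libraries. The depot labels were checked on Zic1, a brown depot gene, which had 3.57 to 11.1 FPKM in BAT and at most 0.163 in WAT, and on Hoxc10, a gene of the white inguinal depot, which had 5.62 to 12.5 FPKM in WAT and at most 0.121 in BAT. Tcf21, another white depot marker, was at most 0.0987 FPKM everywhere. Of the other depot markers, the white gene Hoxc9 had a mean of 4.13 FPKM in WAT and 0.226 in BAT day 4 control. The rest differed less. Hoxc8, a white gene, had 7.88 FPKM in WAT and 5.16 in BAT day 4 control. Lhx8, a brown gene, had 18.4 FPKM in WAT day 4 control, more than the 10.3 of BAT day 8 control.

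All 8 genes passed the filter for testing, which was an FPKM of 1 in at least 2 of the 16 libraries of replicates 1 and 2. Aebp1, Sox9, Nr2f1, Nr2f2 and Foxc1 reached it in all 16 libraries, Foxc2 in 12 and Gata2 in 11. Gata3 reached it in 2 libraries, both of WAT day 4 EGCG, so a high level in that group was the condition of its being tested. Mean levels per length spanned a wide range. Aebp1 averaged 406 FPKM, at the 99.1th percentile of tested genes, while Nr2f2 averaged 20.7, Nr2f1 11.9, Sox9 7.23, Foxc1 7.02, Foxc2 2.88, Gata2 1.86 and Gata3 0.388, the last at the 0.901th percentile. The bulk RNA holds all cells of a culture, so fewer cells of a type and less RNA per cell cannot be told apart in any result below.

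The first question was how EGCG changed these factors. Gata2, Aebp1 and Foxc2 were higher with EGCG in both depots on both days, and Foxc1 was called lower in 3 of the 4 comparisons. Nr2f1 was lower on day 4 and higher on day 8 in both depots. Sox9 was higher in WAT on day 8 and in BAT on day 4. In WAT on day 4, 6 of the 8 genes were called (4 higher, 2 lower), where 53.7% of all tested genes were called (34.4% higher, 19.3% lower). The 4 higher include Gata3, for which a high level in WAT day 4 EGCG was the condition of being tested. Its change also enters the WAT day 4 median below. On day 8 in WAT 7 were called (6 higher, 1 lower) against 63.6% of all tested genes (44.7% higher, 18.9% lower). BAT on day 4 had 5 calls (4 higher, 1 lower) against 48.5% (27.9% higher, 20.6% lower). BAT on day 8 had 7 calls (6 higher, 1 lower) against 72.6% (46.5% higher, 26.1% lower). With so many genes called, a call by itself does not set these genes apart. The median log2 change of the 8 genes was 0.26 on day 4 and 0.50 on day 8 in WAT, where all tested genes had medians of 0.087 and 0.17. In BAT it was 0.29 on day 4 and 0.74 on day 8, where all tested genes had 0.032 and 0.17. Median-ratio scaling of the libraries moved the all-gene medians of day 8 to 0.0055 in WAT and 0.019 in BAT, a shift of the whole distribution that the changes below include. Under that scaling the share of calls that were higher went from 64.1% to 44.7% in WAT day 4, from 70.3% to 51.2% in WAT day 8 and from 64.0% to 51.8% in BAT day 8.

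**Figure D1:**
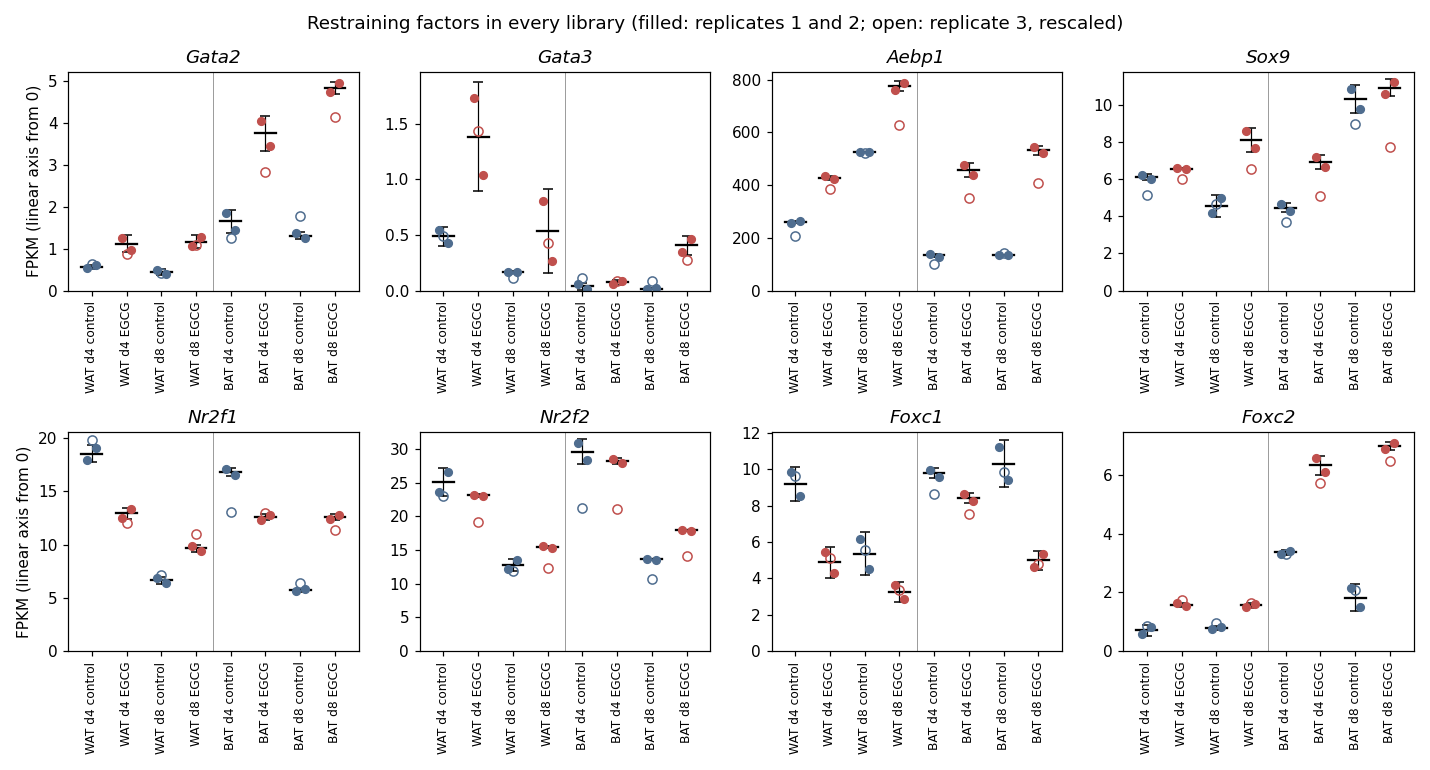
FPKM (linear axis from 0) of each of the 8 genes in the 8 groups, with filled points for replicates 1 and 2, open points for replicate 3 after rescaling within its own table, and a line and bar for the mean and SD of replicates 1 and 2. EGCG groups are red and control groups blue, and the red points of Aebp1 in BAT (439 to 544 FPKM in replicates 1 and 2) stand far above the blue ones (129 to 137).

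Gata2 is the GATA factor of precursors and of several blood and endothelial lineages. It lies on chromosome 6 at 88143885 to 88157024 of mm9 on the plus strand (ENSMUSG00000015053.8). RefSeq gives 2 start sites, and the 250 bases before each are shown because Gata2 rose with EGCG in all 4 comparisons. They are chr6:88193641-88193890 and chr6:88198414-88198663 of GRCm38.p6, plus strand. Capitals mark 3 motifs, each searched on both strands. The GC box has the letters GGGCGG. The CCAAT box has the letters of its name. The core of the antioxidant response element has the letters TGACNNNGC, and no marked matches overlap.
Gata2, upstream start: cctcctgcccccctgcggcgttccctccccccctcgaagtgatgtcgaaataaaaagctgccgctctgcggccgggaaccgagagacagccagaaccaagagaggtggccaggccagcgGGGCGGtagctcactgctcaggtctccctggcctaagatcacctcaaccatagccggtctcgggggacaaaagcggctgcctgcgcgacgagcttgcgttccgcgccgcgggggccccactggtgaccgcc
Gata2, downstream start: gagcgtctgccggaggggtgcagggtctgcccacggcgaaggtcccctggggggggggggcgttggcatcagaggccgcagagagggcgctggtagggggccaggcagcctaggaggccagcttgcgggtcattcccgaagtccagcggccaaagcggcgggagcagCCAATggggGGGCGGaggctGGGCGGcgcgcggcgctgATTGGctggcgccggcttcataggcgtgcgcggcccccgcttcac
The upstream window held 1 GC box, and the downstream one held 2 GC boxes and 2 CCAAT boxes. With the first 50 transcribed bases included, a GC box occurred in 35.7%, a CCAAT box in 37.4% and the antioxidant core in 12.4% of the 32851 promoters of the table. The motif GATA itself, found in 57.9% of them, was in neither Gata2 promoter. GC content was 69.3% and 73.7%, above the median of 52.7%.

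In WAT on day 4 Gata2 had 0.535, 0.604 and 0.659 FPKM in control replicates 1 to 3 and 1.26, 0.973 and 1.0 with EGCG, so the groups did not overlap. The log2 change was 0.43 ± 0.11 (SE, limma adjusted p = 0.0053, n = 2 per group), with the same direction in replicate 3. On day 8 in WAT the control libraries had 0.496, 0.384 and 0.428 FPKM and the EGCG libraries 1.06, 1.29 and 0.496, where the last value is that of the library with 5 dominant genes and became 1.08 after rescaling. The change was 0.59 ± 0.11 (limma adjusted p = 0.00044). BAT levels were higher throughout. BAT on day 4 had 1.85, 1.45 and 1.47 FPKM in control and 4.05, 3.46 and 3.47 with EGCG, a change of 0.84 ± 0.11 (limma adjusted p = 4.6e-05). On day 8 BAT control libraries had 1.37, 1.26 and 1.89 FPKM and EGCG libraries 4.74, 4.95 and 5.09, a change of 1.34 ± 0.11 (limma adjusted p = 3.0e-07), the highest of the 4. By group mean of replicates 1 and 2, Gata2 ranged 11.0-fold from WAT day 8 control (0.440) to BAT day 8 EGCG (4.84). In that order BAT day 8 control and WAT day 8 EGCG overlapped, as did WAT day 8 EGCG and WAT day 4 EGCG, and all other neighbours were apart in both replicates. The change with EGCG was larger in BAT than in WAT by 0.75 ± 0.15 on day 8 (limma adjusted p = 0.0023), but at a pseudocount of 0.1 the difference was 0.57 (limma adjusted p = 0.10), so it depended on the scale. On day 4 the difference was 0.42 (limma adjusted p = 0.060), and it was called without replicate 1 of WAT day 4 EGCG (limma adjusted p = 0.048) or of BAT day 4 control (limma adjusted p = 0.040). Without replicate 1 of WAT day 4 EGCG the WAT day 4 call was lost (0.33, limma adjusted p = 0.055).

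Gata3, the second GATA factor, also drives mammary epithelium and T lymphocytes. It lies on chromosome 2 at 9778705 to 9811661, minus strand (ENSMUSG00000015619.9), where 3.90% of its exon bases overlap Gm13256 on the opposite strand and 1.94% overlap 9230102O04Rik on its own strand. Whether the counting used strand is not given in the sources used here. Gata3 was the only one of the 8 with higher group means in WAT than in BAT on both days and under both treatments. WAT day 4 control libraries had 0.545, 0.428 and 0.512 FPKM (90, 59 and 27 reads) and EGCG libraries 1.73, 1.03 and 1.63 (245, 155 and 123 reads). The change was 0.67 ± 0.17 (limma adjusted p = 0.0059), with the limit from the filter given above. Tested without any filter it had a limma adjusted p of 0.010, and without replicate 1 of WAT day 4 EGCG the call was lost (0.45, limma adjusted p = 0.070). On day 8 in WAT the EGCG libraries had 0.801, 0.265 and 0.194 FPKM, the last 0.424 after rescaling, with replicates 1 and 2 far apart. The controls were lower, at 0.163, 0.171 and 0.113 FPKM. That difference was not called (0.37, 95% interval 0.0026 to 0.74, limma adjusted p = 0.073), and it was called without replicate 2 of WAT day 8 EGCG (0.63, limma adjusted p = 0.0084).

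In BAT Gata3 was near the floor. The floor of 3 reads corresponded to at most 0.0237 FPKM in replicates 1 and 2. BAT control libraries of day 4 had 8, 2 and 7 reads of Gata3 and those of day 8 had 2, 3 and 5. BAT day 4 EGCG libraries had 8, 14 and 6 reads, and the difference from control was not called (0.05, limma adjusted p = 0.84). BAT day 8 EGCG libraries had 52, 79 and 19 reads, or 0.345, 0.465 and 0.342 FPKM, above all BAT control libraries. The change was 0.46 ± 0.17 (limma adjusted p = 0.027), and it was lost when any 1 of the 4 libraries of the comparison was left out (limma adjusted p = 0.0505 to 0.122).

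Epithelial markers were also higher in WAT day 4 EGCG than in its control. Epcam, an epithelial adhesion protein, had 3.93, 3.28 and 3.20 FPKM in WAT day 4 control and 9.49, 4.44 and 8.57 in WAT day 4 EGCG. Replicate 2, the lowest of the 3 EGCG libraries in Gata3, was also the lowest in Epcam. The sum over the 8 mammary epithelial markers fixed for this purpose (Epcam, Krt8, Krt18, Krt19, Krt5, Krt14, Cdh1 and Elf5) was 40.9 to 85.2 FPKM in WAT day 4 control, 65.3 to 202 in WAT day 4 EGCG, 22.2 to 44.6 in WAT day 8 control and 28.2 and 45.0 in replicates 1 and 2 of WAT day 8 EGCG (21.6 in replicate 3, 47.1 rescaled). Within the WAT controls the order of the libraries by this sum and by Gata3 was not always the same. In replicates 1 and 2 of day 4 control the sum was 50.4 and 40.9 with Gata3 at 0.545 and 0.428 FPKM. In those of day 8 control it was 25.1 and 22.2 with Gata3 at 0.163 and 0.171. Replicate 3 is in the table scaled separately, so its rank among the 3 libraries is less certain. In WAT day 8 control replicate 3 had the highest sum (44.6) and the lowest Gata3 (0.113 FPKM), and in WAT day 4 control it had the highest sum (85.2) and the middle Gata3 value (0.512). At least 5 of the 8 reached 1 FPKM in both replicates in every WAT group. In BAT the sum was 0.243 to 5.48 FPKM, made up almost wholly of Krt19, while Krt14 was at 0 in replicates 1 and 2 of every BAT group and Krt8 and Epcam were at most 0.0852 in any BAT library. BAT day 8 EGCG had Gata3 at 0.342 to 0.465 FPKM with defining epithelial markers at or near 0. Of 7 T lymphocyte markers none reached 1 FPKM in both replicates 1 and 2 of any group, and their sum over all 24 libraries was 0.326 to 2.26 FPKM. In replicate 3 Il2rg, a cytokine receptor chain that other immune cells share, reached 1.02 to 2.07 FPKM in 5 of the 8 groups. Cd3g was at 0 in all 24 libraries. The part of epithelial cells in the Gata3 values of WAT or BAT was not tested. Across the 16 libraries Ehf, an epithelial transcription factor, was among the tested protein-coding genes most like Gata3 (Pearson r = 0.93), a description over libraries that share depots and treatments.

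**Figure D2:**
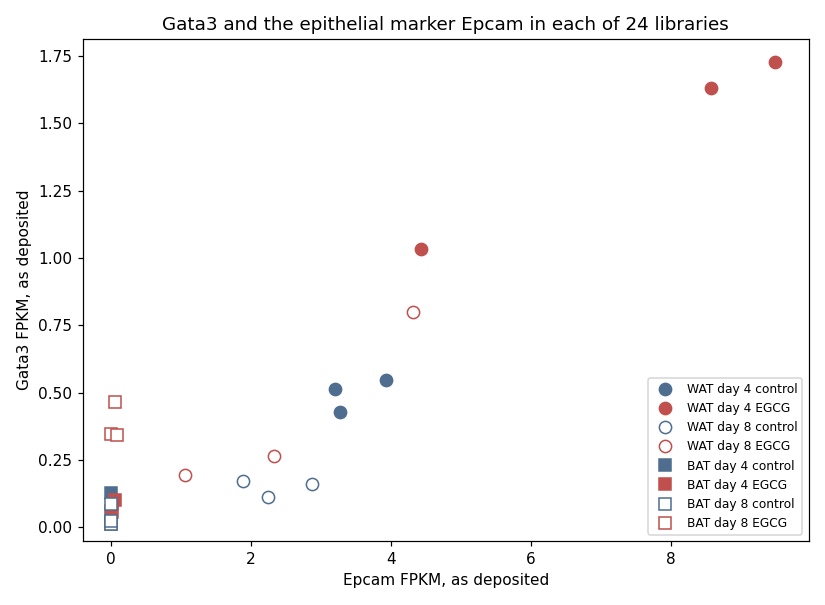
Gata3 against Epcam, both in FPKM as deposited on linear axes, for the 24 libraries (circles WAT, squares BAT, red EGCG, blue control, filled day 4, open day 8). The WAT day 4 EGCG libraries lie at the upper right with Epcam at 4.44 to 9.49, whereas the BAT day 8 EGCG squares have Gata3 at 0.342 to 0.465 with Epcam at 0.0852 or less.

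Aebp1 was the most abundant of the 8 and had the largest log2 change with EGCG in BAT on both days. Its gene, on chromosome 11 at 5761950 to 5772091, plus strand (ENSMUSG00000020473.7), also encodes the secreted matrix protein ACLP, and a gene-level FPKM does not separate the products. The 250 bases before its RefSeq start, chr11:5861616-5861865 of GRCm38.p6, plus strand, are shown with the same marking.
Aebp1: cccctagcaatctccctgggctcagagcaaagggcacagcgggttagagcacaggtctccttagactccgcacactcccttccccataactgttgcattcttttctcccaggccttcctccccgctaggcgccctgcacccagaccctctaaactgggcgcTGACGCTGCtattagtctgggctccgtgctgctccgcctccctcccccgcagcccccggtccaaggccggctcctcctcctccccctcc
The capitals are 1 antioxidant core, and the window held no GC box or CCAAT box. None of the other 7 promoter entries of the 8 genes held that core. A match of letters is not a bound site.

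In BAT Aebp1 had 137, 129 and 116 FPKM in day 4 control and 476, 439 and 430 with EGCG, a 3.44-fold difference and a log2 change of 1.77 ± 0.048 (limma adjusted p = 7.6e-10). BAT day 8 control libraries had 134, 135 and 151 FPKM and EGCG libraries 544, 521 and 501, 3.97-fold higher (1.98 ± 0.048, limma adjusted p = 2.0e-11). The 6 BAT EGCG libraries all lay above the 6 BAT controls. In WAT the starting level was higher. WAT day 4 control had 258, 264 and 216 FPKM and EGCG 433, 423 and 439 (0.71 ± 0.048, limma adjusted p = 2.9e-07). WAT day 8 control had 526, 525 and 529 FPKM and EGCG 762, 789 and 288, the last 628 after rescaling, which was still above the rescaled control of 522. The change was 0.56 ± 0.048 (limma adjusted p = 1.1e-06). The order of group means ran from BAT day 4 control (133) and BAT day 8 control (134), which overlapped, to WAT day 8 EGCG (776), and BAT day 8 EGCG (532) overlapped WAT day 8 control (526). The effect of EGCG was larger in BAT than in WAT by 1.06 ± 0.068 on day 4 (limma adjusted p = 1.6e-06) and by 1.42 ± 0.068 on day 8 (limma adjusted p = 1.3e-07). Shc2 (r = 0.96) and Il4ra (r = 0.95) had the most similar patterns over the 16 libraries.

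Sox9, the master factor of cartilage and a repressor of the early C/EBP genes, lies on chromosome 11 at 112643538 to 112649074, plus strand (ENSMUSG00000000567.4). With EGCG it was higher in WAT on day 8 and in BAT on day 4. WAT day 8 control had 4.14, 4.96 and 4.71 FPKM and EGCG 8.56, 7.65 and 2.99, the last 6.52 after rescaling against 4.65 in the rescaled control. The change was 0.72 ± 0.082 (limma adjusted p = 1.2e-05). BAT day 4 control had 4.65, 4.28 and 4.29 FPKM and EGCG 7.16, 6.63 and 6.24 (0.53 ± 0.082, limma adjusted p = 0.00022). WAT day 4 had 6.23, 5.97 and 5.40 FPKM in control and 6.60, 6.53 and 6.81 with EGCG, a difference that was not called (0.09, 95% interval -0.09 to 0.27, limma adjusted p = 0.38). BAT day 8 had 10.8, 9.75 and 9.47 FPKM in control and 10.6, 11.2 and 9.48 with EGCG, also not called (0.08, interval -0.10 to 0.26, limma adjusted p = 0.41). Sox9 thus differed between depots in both directions. The EGCG effect was larger in BAT by 0.44 ± 0.12 on day 4 (limma adjusted p = 0.015, lost without replicate 2 of BAT day 4 control at 0.056 or replicate 1 of BAT day 4 EGCG at 0.060) and smaller in BAT on day 8 (-0.64 ± 0.12, limma adjusted p = 0.0012). Its range over group means was 2.44-fold, the narrowest of the 8 beside Nr2f2 (2.31-fold).

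Cartilage genes that SOX9 activates gave a check of that lineage. Of 11 listed, 3 were tested (Col11a1, Col11a2 and Comp). Col2a1 and Acan, the defining cartilage genes, were at most 0.0627 and 0.123 FPKM in any library. Comp, a matrix protein also made by fibroblasts, fell with EGCG on day 8 in WAT from 4.98 to 0.24 FPKM (mean of 2, -2.27 ± 0.084, limma adjusted p = 1.4e-09) and in BAT from 20.3 to 1.23 (-3.25 ± 0.084, limma adjusted p = 3.2e-11). In BAT on day 4 Col11a1 rose from 18.6 to 35.0 FPKM (0.88 ± 0.070, limma adjusted p = 1.1e-06). Schwann cell markers, which include Sox10, moved with EGCG. The sum of 5 such markers was 8.78 to 10.9 FPKM in WAT day 4 control and 17.8 to 23.7 with EGCG, 16.02 to 19.0 in WAT day 8 control and 34.0 and 34.9 in replicates 1 and 2 with EGCG (15.9 in replicate 3, 34.7 rescaled), 12.4 to 13.8 and 27.5 to 36.2 in BAT day 4, and 24.8 to 26.8 and 46.6 to 51.6 in BAT day 8, with 2 to 4 of the 5 at 1 FPKM or more. Their part in the Sox9 values was not tested.

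Nr2f1 and Nr2f2 are paralogs. Nr2f1 lies on chromosome 13 at 78328234 to 78339018, minus strand (ENSMUSG00000069171.7), and Nr2f2 on chromosome 7 at 77496832 to 77511621, minus strand (ENSMUSG00000030551.7). The longest run of bases shared by their coding sequences is shown, since reads inside it cannot be assigned to 1 of them. It has 59 bases, at coding positions 232 to 290 of 1263 in Nr2f1 (chr13:78337545-78337603 of mm9) and 220 to 278 of 1245 in Nr2f2 (chr7:77504938-77504996 of mm9), within the stretch that codes for the DNA-binding zinc fingers. The read length is not given in the sources used here.
Nr2f1 and Nr2f2: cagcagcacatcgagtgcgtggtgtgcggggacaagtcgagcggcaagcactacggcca

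Nr2f1 changed in opposite directions on the 2 days. In WAT on day 4 control libraries had 17.97, 19.1 and 20.8 FPKM and EGCG libraries 12.5, 13.3 and 13.6, with no overlap. The gene fell by 0.49 on the log2 scale (-0.49 ± 0.053, limma adjusted p = 1.3e-05). In WAT on day 8 controls had 6.86, 6.42 and 7.24 FPKM and EGCG libraries 9.89, 9.40 and 5.04, the last 11.0 after rescaling, a rise of 0.48 ± 0.053 (limma adjusted p = 8.45e-06). BAT day 4 had 17.1, 16.6 and 15.1 FPKM in control and 12.4, 12.8 and 15.9 with EGCG. The fall of 2 replicates (-0.39 ± 0.053, limma adjusted p = 7.0e-05) was absent from replicate 3, where the difference was 0.07 as deposited and -0.01 rescaled. BAT day 8 had 5.60, 5.82 and 6.76 FPKM in control and 12.4, 12.8 and 14.0 with EGCG, 2.21-fold higher (1.02 ± 0.053, limma adjusted p = 7.1e-09). The effect on day 8 exceeded that on day 4 by 0.97 ± 0.074 in WAT (limma adjusted p = 2.0e-06) and by 1.41 ± 0.074 in BAT (limma adjusted p = 7.1e-08).

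Nr2f2 moved less. WAT day 4 had 23.6, 26.5 and 24.1 FPKM in control and 23.3, 23.0 and 21.7 with EGCG, not called as deposited (-0.11, 95% interval -0.24 to 0.03, limma adjusted p = 0.16) but called after median-ratio scaling (-0.24, limma adjusted p = 0.0070) or without replicate 1 of WAT day 4 control (-0.19, limma adjusted p = 0.036). BAT day 4 had 31.0, 28.4 and 24.7 FPKM in control and 28.5, 27.9 and 25.9 with EGCG, overlapping groups (-0.07, interval -0.20 to 0.07, limma adjusted p = 0.39). On day 8 in WAT it went from 12.2, 13.5 and 11.996 FPKM to 15.6, 15.3 and 5.62 (12.3 rescaled), a rise of 0.25 ± 0.062 (limma adjusted p = 0.0036) that was lost after median-ratio scaling (0.06, limma adjusted p = 0.42) and quantile normalization (0.07, limma adjusted p = 0.40). On day 8 in BAT it went from 13.7, 13.5 and 11.3 FPKM to 17.996, 17.9 and 17.4 (0.37 ± 0.062, limma adjusted p = 0.00015), with no overlap. Over the 16 libraries Nr2f1 and Nr2f2 had an r of 0.87 with each other. The genes most like Nr2f1 were Ncl and Hnrnpa1 (both r = 0.98), which encode abundant RNA-binding proteins, and those most like Nr2f2 were Cep78 and Fanca (both r = 0.98).

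Foxc1 and Foxc2, the paired forkhead genes, went in opposite directions. Foxc1 lies on chromosome 13 at 31898515 to 31902504, plus strand (ENSMUSG00000050295.2), and Foxc2 on chromosome 8 at 123640071 to 123642792, plus strand (ENSMUSG00000046714.6). Their longest shared coding run has 53 bases, at positions 439 to 491 of 1662 in Foxc1 (chr13:31899515-31899567 of mm9) and 418 to 470 of 1485 in Foxc2 (chr8:123640932-123640984 of mm9), within the stretch that codes for the forkhead domain. It is followed by the 250 bases before the RefSeq start of Foxc1, the one gene of the 8 that fell in most comparisons (chr13:31806396-31806645 of GRCm38.p6, plus strand, same marking).
Foxc1 and Foxc2: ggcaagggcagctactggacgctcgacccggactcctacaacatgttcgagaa
Foxc1, before the start: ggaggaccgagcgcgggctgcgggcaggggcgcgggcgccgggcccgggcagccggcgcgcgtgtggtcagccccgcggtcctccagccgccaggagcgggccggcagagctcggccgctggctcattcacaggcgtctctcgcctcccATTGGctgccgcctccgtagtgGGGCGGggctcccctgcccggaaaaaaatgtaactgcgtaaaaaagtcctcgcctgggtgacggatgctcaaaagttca
The Foxc1 window held 1 CCAAT box, here read on the opposite strand, and 1 GC box.

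Foxc1 had 9.87, 8.53 and 10.1 FPKM in WAT day 4 control and 5.47, 4.27 and 5.79 with EGCG, and fell by 0.80 (-0.80 ± 0.14, limma adjusted p = 0.00061). In WAT on day 8 it had 6.18, 4.51 and 5.64 FPKM in control and 3.62, 2.85 and 1.53 with EGCG (3.35 rescaled), and fell by 0.58 (-0.58 ± 0.14, limma adjusted p = 0.0039). BAT day 8 had 11.2, 9.41 and 10.5 FPKM in control and 4.63, 5.35 and 5.91 with EGCG, a level 0.483 times that of control (-0.92 ± 0.14, limma adjusted p = 0.000105). BAT day 4 had 9.98, 9.59 and 10.1 FPKM in control and 8.64, 8.24 and 9.27 with EGCG. That difference was not called (-0.19, 95% interval -0.51 to 0.12, limma adjusted p = 0.30). In each comparison the EGCG libraries lay below every control library. The day 4 difference between depots, 0.61 ± 0.20, had a limma adjusted p of 0.044 that was lost without replicate 1 of WAT day 4 control (0.51, limma adjusted p = 0.13) and in 6 other such fits, so it rests on single libraries. In BAT the effect on day 8 was below that on day 4 by 0.72 (-0.72 ± 0.20, limma adjusted p = 0.0098).

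Foxc2 rose in all 4 comparisons. WAT day 4 control had 0.566, 0.822 and 0.874 FPKM and EGCG 1.62, 1.51 and 1.96 (0.60 ± 0.11, limma adjusted p = 0.00054). WAT day 8 control had 0.739, 0.815 and 0.975 FPKM and EGCG 1.50, 1.61 and 0.740 (1.62 rescaled), a change of 0.52 ± 0.11 (limma adjusted p = 0.0010). BAT day 4 control had 3.30, 3.41 and 3.83 FPKM and EGCG 6.56, 6.09 and 7.03 (0.75 ± 0.11, limma adjusted p = 0.000115). BAT day 8 control had 2.13, 1.49 and 2.18 FPKM and EGCG 6.88, 7.08 and 7.98, 3.85-fold higher (1.51 ± 0.11, limma adjusted p = 1.0e-07). On day 8 the effect in BAT exceeded that in WAT by 0.99 ± 0.15 (limma adjusted p = 0.00036), whereas on day 4 the depot difference was 0.14 (interval -0.19 to 0.47, limma adjusted p = 0.51). Foxc2 ranged 10.1-fold over group means, close to Gata2 (11.0-fold), and Foxc2 was the gene most like Gata2 (r = 0.98 over 16 libraries). Dlx2 (r = 0.98) was the gene most like Foxc2, followed by Gata2, and Ptpn14 (r = 0.97) was the second most like Gata2. For Foxc1 they were Lpar6 (r = 0.94) and D2hgdh (r = 0.93), and for Sox9 Ptp4a1 (r = 0.92) and Sema3e (r = 0.92).

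**Figure D3:**
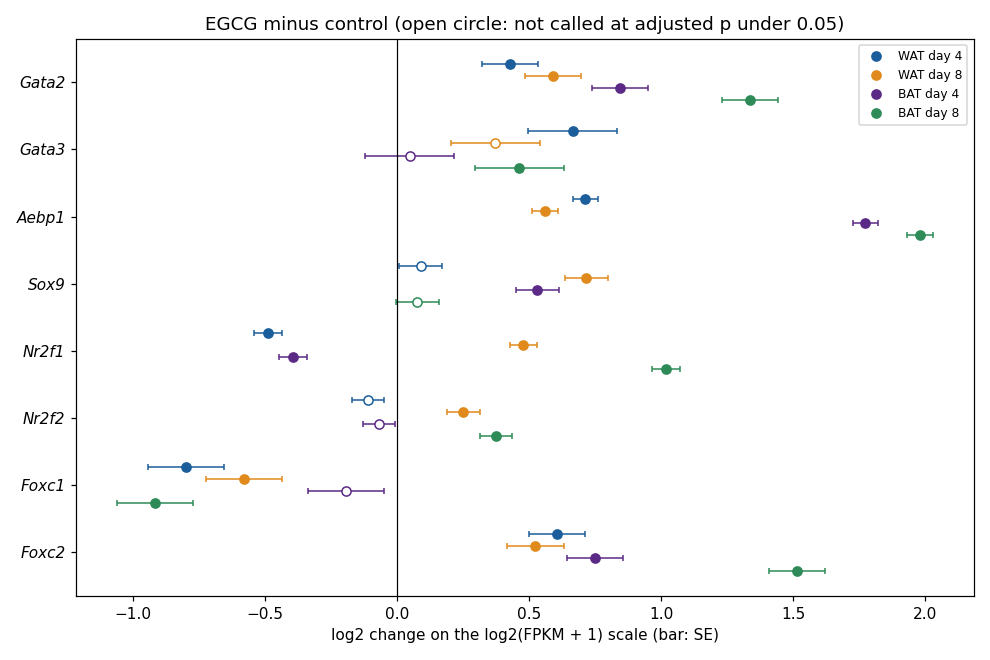
EGCG minus control in log2 on the log2(FPKM + 1) scale for each gene, 1 colour for each depot and day, with SE bars from limma and open circles where the adjusted p was not under 0.05. Gata2, Aebp1 and Foxc2 lie to the right of 0 in all 4 comparisons, Foxc1 lies to the left, and Nr2f1 lies at -0.49 and -0.39 on day 4 and at 0.48 and 1.02 on day 8.

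Gata2, Foxc2 and Nr2f2 are also known from endothelium, whose markers were higher with EGCG. The sum over 8 endothelial markers was 23.9 to 32.8 FPKM in WAT day 4 control and 48.4 to 53.0 with EGCG, 29.1 to 31.9 in WAT day 8 control and 36.9 and 38.9 in replicates 1 and 2 with EGCG (17.8 in replicate 3, 38.9 rescaled), 19.7 to 25.3 in BAT day 4 control and 45.1 to 51.5 with EGCG, and 22.7 to 23.5 in BAT day 8 control and 40.0 to 43.6 with EGCG. Of the 8, between 4 and 7 reached 1 FPKM in both replicates, and none was at 0. The adherens junction protein Cdh5, the endothelial cadherin, had 5.21 to 5.84 FPKM in BAT day 8 control and 11.9 to 14.2 with EGCG. The sum of 5 lymphatic endothelial markers, of which at most 3 reached 1 FPKM in both replicates, was 3.02 to 3.26 FPKM in WAT day 4 control and 5.78 to 7.27 with EGCG, 3.92 to 7.45 in WAT day 8 control and 5.79 and 6.23 in replicates 1 and 2 with EGCG (2.29 in replicate 3, 4.99 rescaled), 0.901 to 1.51 in BAT day 4 control and 2.79 to 3.25 with EGCG, and 1.34 to 1.799 in BAT day 8 control and 6.17 to 6.86 with EGCG. In BAT day 8 the rise was carried by Reln (0.256 to 3.65 FPKM in the mean of 2, 1.89 ± 0.088, limma adjusted p = 3.1e-09) and Flt4 (0.375 to 1.94 FPKM, 1.10 ± 0.11, limma adjusted p = 2.2e-06), both named after their values were seen, while Lyve1 was not called (-0.27, limma adjusted p = 0.29). Prox1 did not exceed 0.581 FPKM in any library, and Ccl21a was at 0 in replicates 1 and 2 of 7 of the 8 groups. Mast cells express Gata2 strongly, and of 8 mast cell markers at most 2 reached 1 FPKM in both replicates of a group, with Ms4a2 at 0 in all 16 libraries of replicates 1 and 2 and a sum of 0.707 to 3.49 FPKM. The part of endothelial or lymphatic endothelial cells in these results was not tested. Over the same comparisons the sum of 12 adipocyte markers fell. It was 2316 to 3084 FPKM in WAT day 4 control and 429 to 468 with EGCG. In WAT day 8 it was 5368 to 6314 in control and 168 and 181 in replicates 1 and 2 with EGCG (65.8 in replicate 3, 144 rescaled). In BAT it was 5567 to 7304 in day 4 control and 1336 to 1404 with EGCG, and 11114 to 11314 in day 8 control and 361 to 391 with EGCG.

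The second question was how the factors changed from day 4 to day 8. In control cells Nr2f1 and Nr2f2 fell in both depots, and Sox9 fell in WAT and rose in BAT. Of the 8 genes 5 were called in WAT control (1 higher, 4 lower) against 61.0% of all tested genes (27.7% higher, 33.2% lower), and 4 in BAT control (1 higher, 3 lower) against 69.2% (28.7% higher, 40.4% lower). Nr2f1 went from a mean of 18.5 to 6.64 FPKM in WAT (-1.35 ± 0.053, limma adjusted p = 3.5e-09) and from 16.8 to 5.71 in BAT (-1.41 ± 0.053, limma adjusted p = 1.1e-09). Nr2f2 fell to 0.512 times its level in WAT (-0.91 ± 0.062, limma adjusted p = 1.8e-07) and to 0.458 times in BAT (-1.07 ± 0.062, limma adjusted p = 2.6e-08). Sox9 fell in WAT (-0.36 ± 0.082, limma adjusted p = 0.0024) and rose 2.31-fold in BAT (1.05 ± 0.082, limma adjusted p = 3.45e-07). Aebp1 rose 2.02-fold in WAT control, from 261 to 526 FPKM (1.01 ± 0.048, limma adjusted p = 1.4e-08), and had 133 and 134 FPKM in BAT control (0.01, 95% interval -0.09 to 0.12). After median-ratio scaling the BAT change of Aebp1 was 0.16 (limma adjusted p = 0.011), since that scaling moved the all-gene median from -0.10 to 0.018 and the share of calls that were higher from 41.5% to 53.3%. Foxc1 fell in WAT (-0.69 ± 0.14, limma adjusted p = 0.0013) and was not called in BAT (0.07, interval -0.25 to 0.38). Foxc2 fell in BAT (-0.64 ± 0.11, limma adjusted p = 0.00020) and was not called in WAT (0.07, interval -0.16 to 0.31). Gata2 and Gata3 were called in neither. The median change of the 8 genes was -0.35 in WAT and -0.11 in BAT, against -0.032 and -0.10 for all tested genes.

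With EGCG the day 8 to day 4 comparison called 6 of the 8 in WAT (2 higher, 4 lower) against 59.5% of all tested genes (31.8% higher, 27.7% lower), and 5 in BAT (3 higher, 2 lower) against 58.0% (29.7% higher, 28.2% lower). Nr2f1 fell less in WAT, from 12.9 to 9.64 FPKM (-0.39 ± 0.053, limma adjusted p = 5.7e-05), and had a mean of 12.6 FPKM on both days in BAT (0.0030, interval -0.11 to 0.12). Nr2f2 still fell in both depots (-0.55 in WAT, limma adjusted p = 1.15e-05, and -0.63 in BAT, limma adjusted p = 4.35e-06). In WAT Aebp1 rose (0.86 ± 0.048), Gata3 fell (-0.64 ± 0.17), Foxc1 fell (-0.47 ± 0.14) and Sox9 rose (0.27 ± 0.082, limma adjusted p = 0.015). For Gata3 a high level in WAT day 4 EGCG was the condition of being tested, which favoured such a fall. The Sox9, Gata3 and Foxc1 calls each depended on single libraries. Sox9 was lost without replicate 1 of WAT day 8 EGCG (0.19, limma adjusted p = 0.12) or replicate 2 of WAT day 4 EGCG (0.26, limma adjusted p = 0.060). Gata3 was lost without replicate 1 of WAT day 4 EGCG (-0.43, limma adjusted p = 0.074) or replicate 2 of WAT day 8 EGCG (-0.39, limma adjusted p = 0.077). Foxc1 was lost without the same libraries (-0.32, limma adjusted p = 0.13, and -0.34, limma adjusted p = 0.12). In BAT Sox9 rose (0.59 ± 0.082, limma adjusted p = 6.8e-05), Aebp1 rose by 0.22 (limma adjusted p = 0.0021), Foxc1 fell (-0.66 ± 0.14, limma adjusted p = 0.0020) and Gata2 rose by 0.30 (limma adjusted p = 0.030). The Gata2 rise was lost without replicate 2 of BAT day 4 EGCG (0.21, limma adjusted p = 0.20) or either BAT day 8 EGCG replicate (limma adjusted p = 0.074 and 0.12). The difference between the day effects with and without EGCG, which is the same contrast as the difference of EGCG effects between days, was called for 3 genes in WAT (3 higher) against 49.4% of all tested genes (29.7% higher), and for 7 in BAT (5 higher, 2 lower) against 55.4% (34.7% higher, 20.6% lower).

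**Figure D4:**
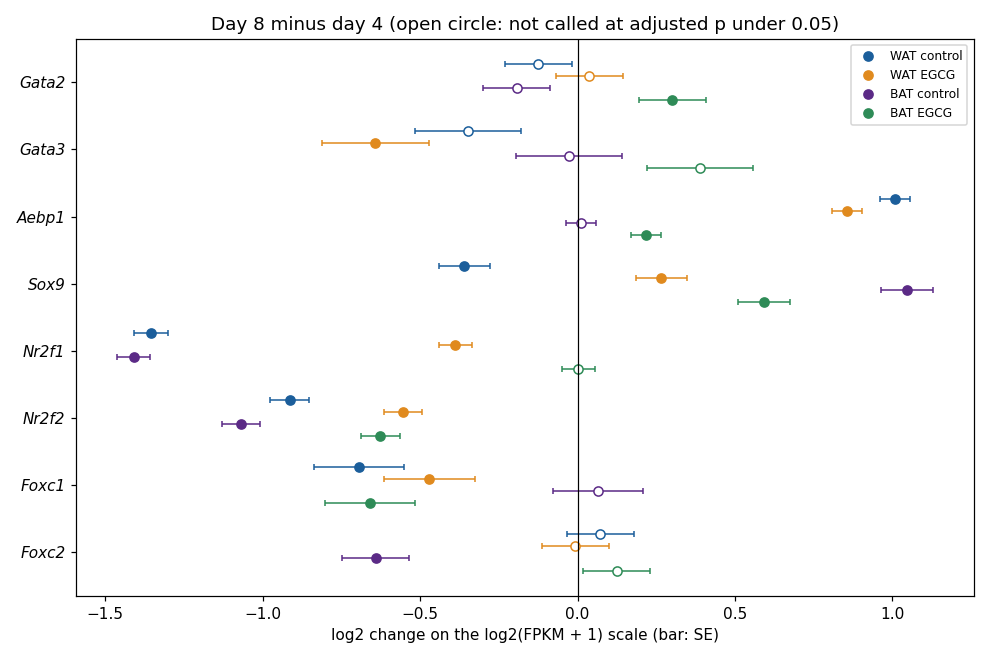
Day 8 minus day 4 in log2 on the log2(FPKM + 1) scale for control and EGCG cells of each depot, with SE bars and open circles where the limma adjusted p was not under 0.05. Nr2f1 lies at -1.35 and -1.41 in controls and at -0.39 and 0.0030 with EGCG.

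The third question was how brown and white cells differed. Foxc2 and Gata2 were higher in BAT in all 4 comparisons, and Aebp1 was lower in BAT in 3. In control cells BAT and WAT differed in 6 of the 8 genes on day 4 (3 higher in BAT, 3 lower) against 55.8% of all tested genes (41.4% higher, 14.4% lower), and in 6 on day 8 (4 higher, 2 lower) against 53.6% (31.6% higher, 22.0% lower). With EGCG it was 5 on day 4 (4 higher, 1 lower) against 48.7% (32.9% higher, 15.8% lower) and 7 on day 8 (6 higher, 1 lower) against 38.4% (24.4% higher, 14.0% lower). The gene lower in BAT in day 4 EGCG was Gata3, which was tested only through its level in WAT day 4 EGCG. Median-ratio scaling changed the share of all calls that were higher in BAT from 74.3% to 51.5% in day 4 control and from 67.6% to 56.9% in day 4 EGCG. Foxc2 was 4.84-fold higher in BAT in day 4 control (1.37 ± 0.11, limma adjusted p = 1.7e-06), 2.33-fold in day 8 control (0.65), 4.03-fold in day 4 EGCG (1.51) and 4.49-fold in day 8 EGCG (1.64). Gata2 was 2.90-fold, 2.98-fold, 3.36-fold and 4.14-fold higher in the same order, with log2 differences of 0.75, 0.68, 1.17 and 1.43 and limma adjusted p of 0.000213 or less. Aebp1 in BAT was 0.510 times its WAT level in day 4 control (-0.97 ± 0.048, limma adjusted p = 8.0e-08), 0.255 times in day 8 control (-1.96 ± 0.048, limma adjusted p = 2.9e-10) and 0.686 times in day 8 EGCG (-0.54 ± 0.048, limma adjusted p = 7.2e-06), and the depots were not called different in day 4 EGCG (0.10, limma adjusted p = 0.12, and 0.15, limma adjusted p = 0.044, without replicate 2 of BAT day 4 EGCG). Sox9 was lower in BAT in day 4 control (-0.38, limma adjusted p = 0.0022) and higher in day 8 control (1.03, limma adjusted p = 1.05e-06). Foxc1 was higher in BAT in day 8 control (0.84, limma adjusted p = 0.00041) and day 4 EGCG (0.69, limma adjusted p = 0.0020). The small Nr2f2 differences of day 4 control (0.24) and day 8 EGCG (0.20) were lost under median-ratio scaling (0.07, limma adjusted p = 0.36, and 0.17, limma adjusted p = 0.062), that of day 4 control was lost without replicate 1 of WAT day 4 control (limma adjusted p = 0.077) or of BAT day 4 control (limma adjusted p = 0.070), and that of day 8 EGCG was also lost when any 1 of its 4 libraries was left out (limma adjusted p = 0.066 to 0.099). The day 8 control difference of Nr2f1 (-0.19, limma adjusted p = 0.010) was lost without replicate 1 of WAT day 8 control (limma adjusted p = 0.072) or of BAT day 8 control (limma adjusted p = 0.064). The Gata3 difference of day 4 control (-0.52) was lost when any 1 of its 4 libraries was left out (limma adjusted p = 0.0505 to 0.103), and the Foxc1 difference of day 8 EGCG (0.50) without replicate 2 of either group (limma adjusted p = 0.14 and 0.11). The change with EGCG itself differed between depots for 3 genes on day 4 (3 higher in BAT) against 28.1% of all tested genes and for 5 on day 8 (4 higher, 1 lower) against 39.2% (19.4% higher, 19.7% lower).

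Other restrainers of adipogenesis gave a wider view. A list of 22 (GATA cofactors, Hedgehog, Notch and Kruppel-like factors among them) had 21 tested genes, and Msx2 was not tested. With EGCG 10 were called in WAT day 4 (3 higher, 7 lower; 53.7% of all tested genes), 15 in WAT day 8 (11 higher, 4 lower; 63.6% of all), 12 in BAT day 4 (8 higher, 4 lower; 48.5% of all) and 16 in BAT day 8 (13 higher, 3 lower; 72.6% of all). The median changes of the list in that order were -0.04, 0.19, -0.12 and 0.50, below the all-gene medians given above on day 4 and above them on day 8. Dlk1, the transmembrane restrainer Pref-1 that acts upstream of Sox9, fell with EGCG. It had 52.2, 51.6 and 60.9 FPKM in WAT day 4 control and 4.55, 7.66 and 6.06 with EGCG (-2.93 ± 0.195, limma adjusted p = 2.6e-07), and 15.3, 15.1 and 15.0 against 3.37, 3.99 and 4.06 in BAT day 4 (-1.80 ± 0.195, limma adjusted p = 1.3e-05). Sox9 was not called in WAT day 4, where Dlk1 fell most, and was higher in BAT day 4. Whether Dlk1 bears on Sox9 in these cells was not tested.

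Zfpm1 (FOG1), a cofactor that binds GATA proteins, was 14.3, 13.6 and 14.9 FPKM in BAT day 8 EGCG and 3.42, 3.49 and 4.36 in control (1.74 ± 0.085, limma adjusted p = 4.4e-09). Runx2, the bone factor, had 9.27, 8.91 and 8.45 FPKM there and 2.22, 1.92 and 2.01 in control (1.72 ± 0.059, limma adjusted p = 2.8e-10). Irf4, a factor of macrophages and adipocytes, went the other way, from 8.16, 7.94 and 6.65 FPKM in BAT day 8 control to at most 0.0498 with EGCG (-3.12 ± 0.285, limma adjusted p = 1.0e-06). Zfp521, a restrainer of Ebf1, was lower in WAT day 4 (9.84 to 4.28 FPKM in the mean of 2, -1.04 ± 0.073, limma adjusted p = 4.1e-07), and so was the Hedgehog factor Gli1 (2.30 to 0.467 FPKM, -1.17 ± 0.17, limma adjusted p = 0.00016). So restrainers did not move as one group.

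**Figure D5:**
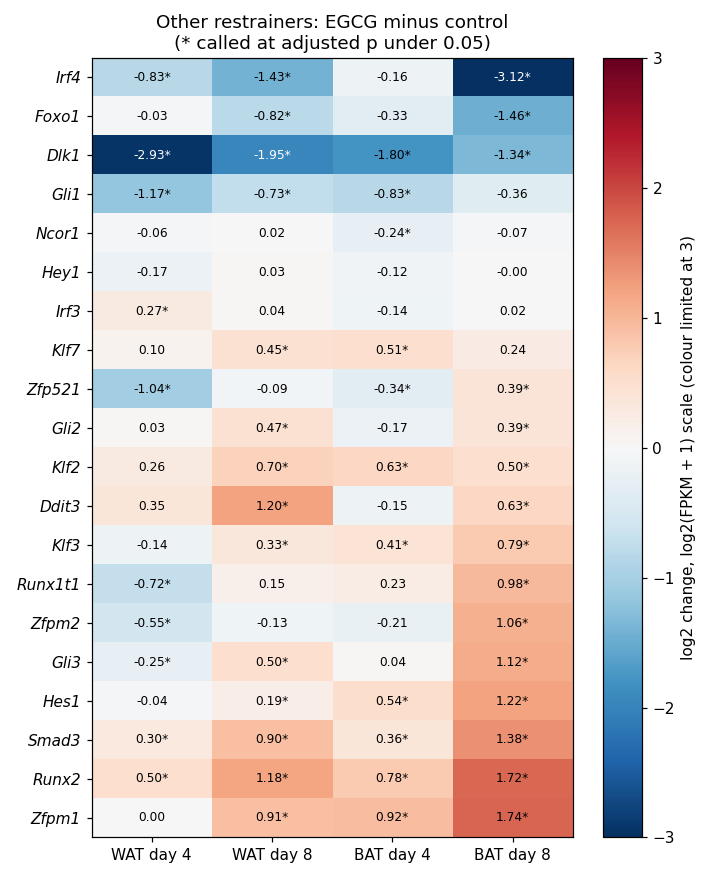
EGCG minus control in log2 on the log2(FPKM + 1) scale for 20 of the 21 tested genes of the list of other restrainers, ordered by BAT day 8, with colour limited at 3 in either direction and a star where the limma adjusted p was under 0.05. The list runs from Irf4 (-3.12 in BAT day 8) to Zfpm1 (1.74), and the WAT day 4 column holds 7 of its 10 calls below 0.

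From day 4 to day 8 in control cells the same list had 13 calls of 21 in WAT (3 higher, 10 lower) against 61.0% of all tested genes (27.7% higher, 33.2% lower), and 17 in BAT (5 higher, 12 lower) against 69.2% (28.7% higher, 40.4% lower). The share called in WAT was near that of all genes. Klf2, a repressor of Pparg, rose from a mean of 1.20 to 5.33 FPKM in WAT (1.53 ± 0.11, limma adjusted p = 3.5e-07) and from 0.820 to 10.1 in BAT (2.61 ± 0.11, limma adjusted p = 2.9e-09), while Dlk1 fell from 51.9 to 8.18 in WAT and from 15.2 to 6.00 in BAT.

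Among 17 relatives of the 8 genes 12 were tested. Gata1, Gata4, Gata5, Foxq1 and Sox8 were not tested, and Gata6 was the other GATA gene tested. Gata6 fell with EGCG in WAT day 4, from 16.2, 15.3 and 15.97 FPKM to 8.91, 8.99 and 9.41 (-0.75 ± 0.072, limma adjusted p = 4.8e-06), opposite to Gata2. With EGCG 7 of the 12 were called in WAT day 4 (4 higher, 3 lower) against 53.7% of all tested genes, and 9 in WAT day 8 (7 higher, 2 lower) against 63.6%. BAT had 9 on day 4 (8 higher, 1 lower) against 48.5% and 11 on day 8 (10 higher, 1 lower) against 72.6%. Cpe, a carboxypeptidase of the family whose domain AEBP1 carries, rose in all 4, in WAT day 4 from 25.7 to 95.6 FPKM (1.85 ± 0.12, limma adjusted p = 1.9e-07) and in BAT day 8 from 83.4 to 282 (1.75 ± 0.12, limma adjusted p = 7.1e-08). Foxf2 rose in BAT day 8 from 2.95 to 8.97 FPKM (1.33 ± 0.082, limma adjusted p = 3.3e-08). Sox4 rose in BAT day 8 from 6.58 to 23.6 FPKM (1.70 ± 0.062, limma adjusted p = 4.5e-10).

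The genes on which the restraining factors act were lower with EGCG for the most part. Of Pparg, Cebpa, Cebpb, Cebpd, Fabp4, Lpl, Adipoq and Plin1, on day 4 in each depot 6 were lower and 2 higher, where 19.3% of all tested genes were lower in WAT and 20.6% in BAT. On day 8 in WAT 7 were lower with 1 not called, where 18.9% of all were lower, and in BAT 8 of 8 were lower, where 26.1% were. The median change in WAT day 4, WAT day 8, BAT day 4 and BAT day 8 was -1.90, -2.68, -1.81 and -3.16. The 2 that were higher on day 4 were Cebpb and Cebpd, the early factors. Cebpb, named after its values were seen, had 82.6, 97.1 and 163 FPKM in WAT day 4 control and 167, 145 and 351 with EGCG, with replicate 3 higher in both groups. Fabp4, the target by which AEBP1 was first described, went in BAT day 8 from 7546 to 224 FPKM in the mean of 2 (-5.07 ± 0.098, limma adjusted p = 5.1e-12). Adipoq, the adipocyte hormone adiponectin, went in WAT day 4 from 121 to 5.17 FPKM (-4.30 ± 0.095, limma adjusted p = 1.6e-10), and Plin1, the lipid droplet coat protein, in WAT day 8 from 141 to 0.439 (-6.65 ± 0.14, limma adjusted p = 1.1e-11). In control cells between day 4 and day 8, while Nr2f1 and Nr2f2 fell, Fabp4 rose in WAT (1.17 ± 0.098, limma adjusted p = 1.1e-06) and in BAT (0.73 ± 0.098, limma adjusted p = 3.7e-05). Whether the factors acted on these genes was not tested.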

How the data were processed

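RNA sequencing of 24 libraries was analysed. The submitters' processing notes name FastQC 0.11.9, HISAT2 2.2.0, HTSeq 0.11 and mm9. The authors deposited FPKM values in 2 tables of the same 37310 genes (16 libraries of replicates 1 and 2, 8 of replicate 3), scaled separately. Symbols and coordinates come from GENCODE vM1 of mm9, counted from 1. All 37310 gene lengths were those of the longest transcript. From the deposited FPKM, multiplying by length gave whole reads within 0.01 in 100% of values. The floor was 3 reads, which covers counting error only.

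Groups came from the labels. Genes with an FPKM of at least 1 in 2 of 16 libraries (14095) entered a linear model of 8 group means on log2(FPKM + 1), with moderated variances that follow a mean trend (limma 3.58.1, R 4.3.3). It had 8 residual degrees of freedom, or 11.4 after moderation. P-values, two-sided, were adjusted (Benjamini-Hochberg) within each of 16 contrasts. The fit was tested on simulated data. The 8 genes and all lists were chosen with earlier results of these data known. Besides the 8, at most 4 list genes per comparison were named, those with the largest absolute log2 change among called genes with a mean FPKM of at least 1 in the higher group, and for each of the 8 the 2 protein-coding genes with the highest r over 16 libraries. Genes that the rule picked but that are not named are not reported here. Markers were named where their level stands beside a result. Comparisons of a depot and day share control libraries. Promoter sequences are from RefSeq (GRCm38.p6). They matched 6 of the 8 genes with 8 entries, and Sox9 and Foxc2 had none. No pair of libraries was a duplicate. The median squared difference within pairs was 1.62 to 3.90 in sampling units, and sampling alone gives 0.455. Alternatives were another pseudocount, no filter or a stricter one, 2 scalings, a replicate block, both tables together, voom on the recovered reads and leaving out each library.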

Additional observations from a re-analysis of the deposited data

Results flagged for a closer look

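The effect of EGCG differed between depots or between days for 7 of the 8 genes, by a test of the difference itself (limma, difference of 2 log2 changes with its SE). The 4 differences were called for 28.1% (depots, day 4), 39.2% (depots, day 8), 49.4% (days, WAT) and 55.4% (days, BAT) of all tested genes, so having such a difference does not set the 8 genes apart. Between depots on day 4 the effect in BAT exceeded that in WAT for Aebp1 by 1.06 ± 0.068 (adjusted p = 1.6e-06), for Sox9 by 0.44 ± 0.12 (adjusted p = 0.015) and for Foxc1 by 0.61 ± 0.20 (adjusted p = 0.044). On day 8 it did so for Gata2 by 0.75 ± 0.15 (adjusted p = 0.0023), Aebp1 by 1.42 ± 0.068 (adjusted p = 1.3e-07), Nr2f1 by 0.54 ± 0.074 (adjusted p = 0.00018) and Foxc2 by 0.99 ± 0.15 (adjusted p = 0.00036), and the difference for Sox9 was -0.64 ± 0.12 (adjusted p = 0.0012).

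Between days in WAT the effect on day 8 exceeded that on day 4 for Sox9 by 0.63 ± 0.12 (adjusted p = 0.00096), Nr2f1 by 0.97 ± 0.074 (adjusted p = 2.0e-06) and Nr2f2 by 0.36 ± 0.087 (adjusted p = 0.0051). In BAT it did so for Gata2 by 0.49 ± 0.15 (adjusted p = 0.015), Aebp1 by 0.21 ± 0.068 (adjusted p = 0.022), Nr2f1 by 1.41 ± 0.074 (adjusted p = 7.1e-08), Nr2f2 by 0.44 ± 0.087 (adjusted p = 0.0011) and Foxc2 by 0.77 ± 0.15 (adjusted p = 0.0011), while the difference was -0.45 ± 0.12 for Sox9 (adjusted p = 0.0057) and -0.72 ± 0.20 for Foxc1 (adjusted p = 0.0098). The Aebp1 difference between days in BAT was lost without replicate 1 of BAT day 4 control, BAT day 8 control or BAT day 8 EGCG (adjusted p = 0.089, 0.053 and 0.086) or replicate 2 of BAT day 4 EGCG (adjusted p = 0.097), and it was 0.06 after median-ratio scaling (adjusted p = 0.51). The Gata2 difference between days in BAT was lost without BAT day 4 control replicate 1 (adjusted p = 0.067) or BAT day 4 EGCG replicate 2 (adjusted p = 0.066). Sox9 is the gene whose depot difference turned, being larger in BAT on day 4 and larger in WAT on day 8. Its day 4 part was lost without replicate 2 of BAT day 4 control or replicate 1 of BAT day 4 EGCG, so the turn depends on single libraries. The Foxc1 difference between depots on day 4 was also lost in fits that left out single libraries.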

How the results depend on the processing

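Of 224 counts of called genes recomputed under the alternatives, 214 stayed within 1.5 times the first count. Of 1760 changes of single genes, 1632 stayed on their side of the threshold without a called value changing sign, 87 lost the call, 38 gained it and 3 reversed. Both tables were also put in 1 fit with the table as a term. There 2 of the 8 genes were called for EGCG in WAT day 8 (26.6% of all tested genes). BAT day 4 had 3 calls (18.95% of all), and day 8 against day 4 in BAT with EGCG had 3 (25.8% of all). The depot difference of the EGCG effect on day 4 had 1 call (4.45% of all). Its day difference had 2 in BAT (16.5% of all) and 0 in WAT by limma (17.2% of all). Voom called 3 genes for the WAT day difference, where the fit of both tables had 3 with a limma unadjusted p under 0.05. In that fit Nr2f2 reversed in WAT day 8 (-0.16, limma adjusted p = 0.64) and in the WAT day difference (-0.036, adjusted p = 0.96), and Sox9 in day 8 against day 4 of WAT with EGCG (-0.15, adjusted p = 0.56). That fit holds replicate 3 of WAT day 8 EGCG. Without this library the depot difference on day 4 had 6 calls (36.7% of all tested genes), and no gene reversed. With a filter at an FPKM of 5, 3 genes were called between depots in day 4 EGCG (55.9% of all tested there), as fewer genes were tested. Leaving out 1 library at a time gave 1 to 4 calls for the depot difference on day 4, with 1 call without BAT day 4 control replicate 2 and without BAT day 4 EGCG replicate 1. The Gata2 depot difference on day 8 was lost with voom on recovered reads (0.51, adjusted p = 0.23), an alternative chosen after seeing the data. The planned edgeR test was not run, because the deposited unit is FPKM. Replicate numbers did not pair the libraries (correlations between groups of -0.079 to 0.081 over 28 pairs), and the replicate block changed no call, with 6, 7, 5 and 7 genes called for EGCG as without it. Depth limits Gata3 in BAT controls, at 2 to 8 reads.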

Other observations

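Within the BAT cultures the white depot gene Hoxc9 was itself higher with EGCG on day 8, at 0.881, 1.003 and 0.903 FPKM against 0.0996, 0.0961 and 0.262 in control, and in WAT it had 7.35 and 7.17 FPKM in replicates 1 and 2 of day 8 EGCG against 4.30 and 4.78 in control. Zic1, the brown depot gene, had 8.00, 7.78 and 6.64 FPKM in BAT day 8 EGCG and 4.05, 3.57 and 4.38 in control. The other depot markers did not move together. In BAT day 8 Hoxc8 was higher with EGCG (3.46 to 8.62 FPKM in the mean of 2, 1.11, limma adjusted p = 2.5e-07) and Lhx8 slightly so (10.3 to 12.1 FPKM, 0.22, limma adjusted p = 0.0043). Ebf3 was lower (12.4 to 9.27 FPKM, -0.39, limma adjusted p = 0.00058), as was Prdm16 (2.29 to 1.85 FPKM, -0.21, limma adjusted p = 0.032). Hoxc10 was not called (0.02, limma adjusted p = 0.86), and Tcf21 was not tested.

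Macrophage markers summed higher with EGCG on day 4 and lower on day 8. The sum of 8 such markers was 79.2 to 87.9 FPKM in WAT day 4 control and 191 to 206 with EGCG, and 189 to 213 in BAT day 4 control and 404 to 487 with EGCG. On day 8 it was 130 to 163 in WAT control and 56.7 and 60.2 in replicates 1 and 2 with EGCG (25.8 in replicate 3, 56.2 rescaled), and 131 to 146 in BAT control and 60.5 to 61.8 with EGCG. The sum of 9 progenitor and fibroblast markers, Pdgfra and Col1a1 among them, was 5343 to 5942 FPKM in BAT day 4 control and 4147 to 4863 with EGCG, and 3197 to 3848 in BAT day 8 control and 2389 to 2460 with EGCG. In WAT it was 8749 to 9600 in day 4 control and 6727 to 7367 with EGCG, and 8310 to 11181 in day 8 control and 4567 and 4875 in replicates 1 and 2 with EGCG (1818 in replicate 3, 3968 rescaled).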
